A study of Mus musculus with 9 samples.

Results

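The core clock genes were examined in colonic intestinal epithelial cells (IECs). All 10 listed genes, *Arntl*, *Clock*, *Npas2*, *Per1*, *Per2*, *Per3*, *Cry1*, *Cry2*, *Nr1d1* and *Nr1d2*, were found by symbol among the 46095 symbols of the deposited count table, and all 10 were among the 14593 genes that passed the filter on low counts. The genes were chosen by name as the core of the loop, and this set was selected on the genotype difference of its counts (log2 fold changes and calls) in these same libraries. That difference is therefore given as a description, with no p-value, and nothing is read from the number of clock genes that passed a threshold.

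IECs were released with EDTA from the colons of 4 mice labelled Smad4-knockout (*Smad4* Vil-KO, libraries S-1 to S-4) and 5 mice labelled Smad4-knockout;Setd2-knockout (*Smad4* Vil-KO;*Setd2* Vil-KO, libraries DDKO-1 to DDKO-5). The Villin promoter drives Cre recombinase in the intestinal epithelium, where floxed alleles are removed, on a C57BL/6j background, so *Smad4* was a target in both groups and *Setd2*, the gene of the enzyme that places H3K36me3, only in DDKO mice, and neither deletion reaches cells that lack Villin. Every mouse had received the carcinogen AOM (10 mg/kg, at 8 weeks of age) and 1 course of 2% DSS, which injures the colonic lining, and IECs were collected at 10 days. The hour of the day at which each colon was taken is not given in the sources used here, and its part in the values below was not tested. The study's methods state that control mice were littermates given the same treatment, but which libraries came from the same litter or day is not given in the sources used here, and spread between libraries is read as spread between mice.

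The molecular clock is a loop in which transcripts and proteins rise and fall over the day in nearly every cell. ARNTL (also called BMAL1) pairs with CLOCK or with its relative NPAS2 and activates genes through E-box sequences, among them those of its own repressors. PER and CRY proteins accumulate, enter the nucleus and inhibit the pair, while NR1D1 and NR1D2 (REV-ERBs) repress *Arntl* and *Npas2* at ROR elements. In mouse peripheral tissues the *Nr1d1* transcript is known to peak earlier in the day than the *Per* transcripts, *Cry1* later than these, and *Arntl* and *Npas2* opposite to *Nr1d1*, so levels in a sample taken at a single time depend on that time. In the gut the clock is known to set daily rhythms of nutrient uptake and of epithelial renewal.

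Total counts were 12487129 to 17120202 per library, and 1 count was worth 0.0594 to 0.0794 CPM (a gene's counts scaled to the size of its library, after TMM normalization). *Setd2* was at 99.2 to 120.1 CPM in S libraries and 53.9 to 87.1 CPM in DDKO libraries, without overlap. *Smad4* was at 54.3 to 92.7 and 38.2 to 113.8 CPM, and transcript outside a deleted part can still be counted. Summed counts of 4 Y-linked genes were at most 1 in S libraries, 28 and 0 in DDKO-3 and DDKO-4, and 4907, 4745 and 3857 in DDKO-1, DDKO-2 and DDKO-5, so that animals of the sex with a Y chromosome were found only among DDKO mice. Colon epithelial markers summed to 18448 to 22434 CPM in S and 13187 to 18373 CPM in DDKO libraries, with 1 of 12 lower at an adjusted p under 0.05. Markers of small-intestinal enterocytes summed to 369 to 468 and 572 to 1617 CPM, with 7 of 9 tested higher. Leukocyte markers summed to 58.6 to 156.9 and 52.0 to 113.6 CPM, with 0 of 9 tested called, and fibroblast and muscle markers to 8.15 to 20.8 and 11.9 to 41.0 CPM, with 0 of 3 tested called. Endothelial markers summed to at most 3.46 CPM with 0 of 1 tested called, and markers of enteric neurons and glia to at most 3.85 CPM with 1 of 2 tested higher and *Sox10* at 0 in every library. The part of these other cells and of sex in the clock values was not tested beyond the fits given below, and in bulk RNA fewer cells that express a gene and less RNA of it per cell cannot be told apart.

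Matches to the DNA elements through which the loop is known to act are shown for 5 members, so that the letters can be read beside the levels given below. Promoter windows of RefSeq (GRCm38.p6, the same build as the mm10 of the submitters' processing notes), 250 bases before to 50 after a start site, were found for 9 of the 10 genes, in 13 windows. Both strands were searched for the E-box CACGTG, the related E-prime box CACGTT, the ROR element core AGGTCA and the D-box TTANNTAA, which PAR bZIP factors such as DBP and TEF bind. Of all 32851 windows, 7.15% held CACGTG, 4.68% CACGTT, 16.3% AGGTCA and 6% TTANNTAA. The 250 bases before the start site are printed for *Per1* (chr11:69098699-69098948, plus strand), *Per3* (chr4:151044666-151044915, minus strand), *Cry1* (chr10:85185055-85185304, minus strand) and *Nr1d1* (chr11:98775378-98775627, minus strand), and 30 bases around the only match of *Arntl* (chr7:113207530-113207559, plus strand). Capitals mark matches on either strand.
Per1: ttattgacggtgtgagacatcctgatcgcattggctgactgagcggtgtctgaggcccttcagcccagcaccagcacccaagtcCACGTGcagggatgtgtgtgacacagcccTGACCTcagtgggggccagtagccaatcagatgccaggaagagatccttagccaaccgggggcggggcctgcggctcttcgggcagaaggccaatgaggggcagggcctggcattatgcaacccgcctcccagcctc
Per3: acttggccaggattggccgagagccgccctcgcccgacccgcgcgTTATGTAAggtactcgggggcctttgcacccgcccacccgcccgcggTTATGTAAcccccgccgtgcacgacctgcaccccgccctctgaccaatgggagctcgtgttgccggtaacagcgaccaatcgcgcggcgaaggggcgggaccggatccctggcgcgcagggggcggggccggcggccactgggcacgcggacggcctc
Cry1: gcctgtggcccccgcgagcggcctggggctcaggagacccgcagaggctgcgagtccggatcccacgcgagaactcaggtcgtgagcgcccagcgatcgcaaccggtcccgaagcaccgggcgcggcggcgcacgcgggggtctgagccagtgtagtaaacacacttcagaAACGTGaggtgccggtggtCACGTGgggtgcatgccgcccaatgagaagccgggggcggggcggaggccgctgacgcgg
Nr1d1: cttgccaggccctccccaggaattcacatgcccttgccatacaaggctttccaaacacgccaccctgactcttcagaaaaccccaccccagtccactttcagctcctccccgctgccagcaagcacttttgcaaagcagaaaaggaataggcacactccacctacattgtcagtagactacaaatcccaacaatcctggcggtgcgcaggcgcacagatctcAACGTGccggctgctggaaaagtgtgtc
Arntl: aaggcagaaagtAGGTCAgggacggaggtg
In the *Per1* window the E-box began at -166 from the start site and an ROR core at -137 lay on the other strand. *Per3* held 2 D-boxes, at -205 and -158. *Cry1* held an E-box at -60 and an E-prime box at -79, and *Nr1d1* an E-prime box at -28. In *Arntl* the ROR core began at base 32 of the transcribed side. Of the windows not printed, *Cry2* held an E-prime box at -166, *Nr1d2* an ROR core at -77 and 1 of the 3 windows of *Clock* an ROR core at -119, while that of *Npas2* held none of the 4 motifs. A match is a run of letters and not a measured binding site.

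Members of both limbs of the loop differed between genotypes, in opposite directions. *Arntl* and *Npas2* were lower in DDKO than in S libraries, *Nr1d1*, *Nr1d2*, *Per2* and *Per3* were higher, and *Clock* had a log2 fold change of -0.06 (standard error 0.07). In edgeR's quasi-likelihood fit over all genes, 4 of the 10 members were higher and 2 lower at an adjusted p under 0.05, against 6.76% and 6.54% of the 14593 genes tested (13.3% in either direction). The median log2 fold change of the members was 0.83, and -0.0006 over all genes tested. The median size of the change regardless of direction was 1.14 for the members and 0.23 for all genes. The set was selected on this difference, so larger values than over all genes were built in, and nothing is read from them. Every DDKO library lay above every S library for 3 members and below for 2, where 8.34% and 8.87% of all genes tested did so (17.2% in either direction). The plot of each member by library shows the separation and its exceptions.

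**Figure D1:**
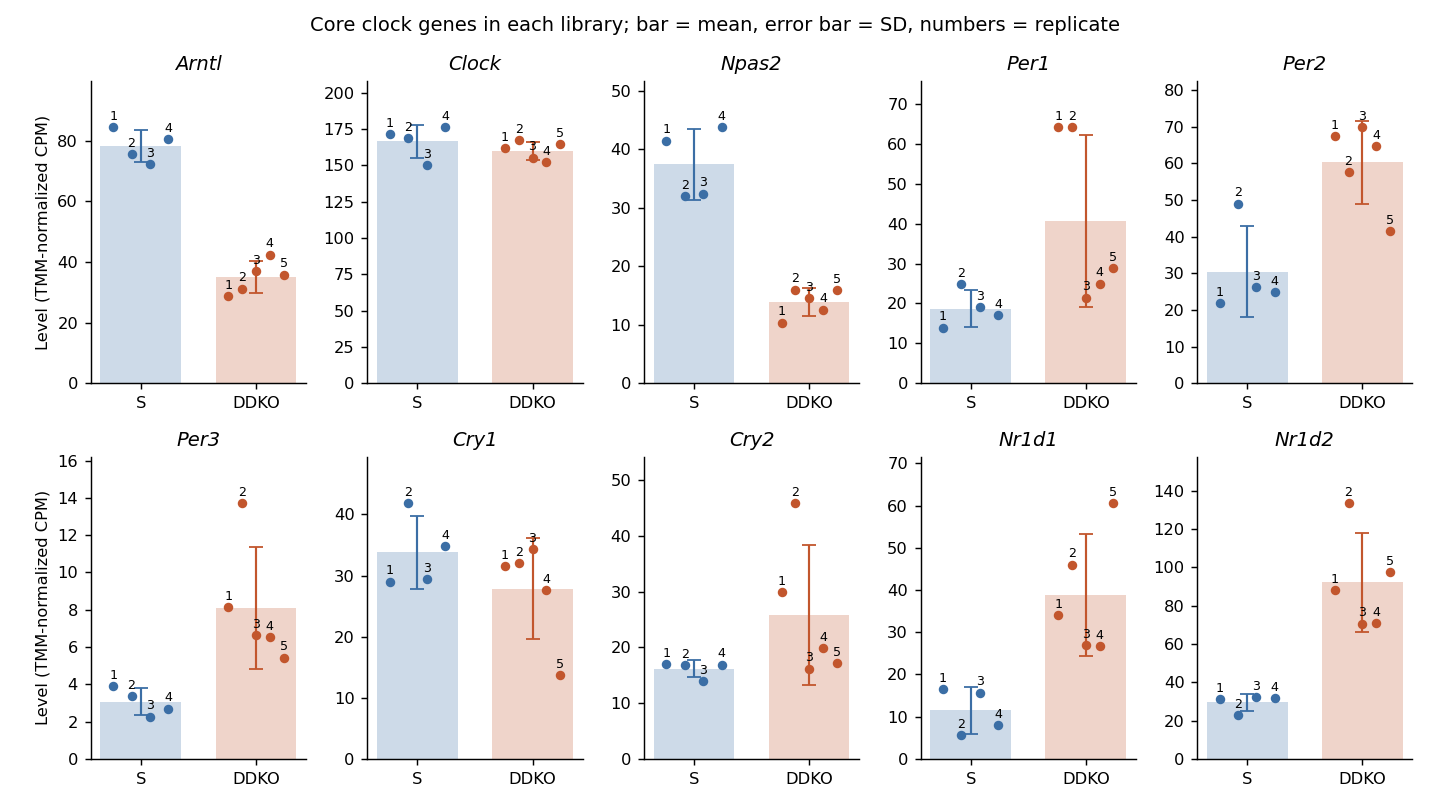
Level of each core clock gene in TMM-normalized CPM (vertical axis, from 0) in S (blue, n = 4) and DDKO (orange, n = 5) libraries. Points are libraries numbered by replicate, bars are means and error bars SD. *Arntl* and *Npas2* were lower in every DDKO library than in any S library, *Per3*, *Nr1d1* and *Nr1d2* were higher in every DDKO library, and the other 5 genes overlapped.

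Among the activators, *Arntl* (11865, chr7:113178471-113314126, plus strand), the partner without which the loop stops, was at 84.4, 75.6, 72.2 and 80.4 CPM in S-1 to S-4 and at 28.8, 31.2, 36.8, 42.4 and 35.8 CPM in DDKO-1 to DDKO-5. The highest DDKO library, DDKO-4, lay far below the lowest S library, S-3. The mean was 78.2 ± 5.35 CPM (SD, n = 4) in S and 35.0 ± 5.28 CPM (SD, n = 5) in DDKO, which is 2.23-fold lower, with -1.16 as the log2 fold change (standard error 0.11). *Npas2* (18143, chr1:39193702-39363240, plus strand), which can take the place of CLOCK, was at 41.5, 32.0, 32.4 and 43.8 CPM in S and at 10.4, 16.0, 14.5, 12.6 and 15.9 CPM in DDKO libraries. These groups were likewise apart, with means of 37.4 ± 6.10 and 13.9 ± 2.40 CPM and a log2 fold change of -1.43 (standard error 0.15), 2.70-fold lower. *Clock* (12753, chr5:76209868-76305603, minus strand), the histone acetyltransferase that pairs with ARNTL, was at 171, 169, 150.1 and 176 CPM in S and at 162, 167, 155, 152 and 164 CPM in DDKO libraries. All 5 DDKO values lay within the range of the S values, and the log2 fold change was -0.06 (standard error 0.07). The *Npas2* level was thus set apart from that of *Clock*, its relative: *Npas2* minus *Clock* was -2.39 to -2.01 on the log2 CPM scale in S and -3.94 to -3.36 in DDKO libraries.

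The nuclear receptors that repress *Arntl* had the widest differences among the repressors. *Nr1d2* (353187, chr14:18204056-18239106, minus strand) was at 31.2, 22.9, 32.2 and 31.8 CPM in S libraries and at 88.1, 133.6, 70.6, 70.8 and 97.4 CPM in DDKO libraries. The lowest DDKO value was more than the highest S value, and the means were 29.5 ± 4.45 (SD, n = 4) and 92.1 ± 25.9 CPM (SD, n = 5), and 1.64 was the log2 fold change (standard error 0.20). *Nr1d1* (217166, chr11:98767932-98775377, minus strand) was at 16.6, 5.65, 15.7 and 8.02 CPM in S and at 34.1, 46.0, 27.0, 26.7 and 60.6 CPM in DDKO libraries. The highest mouse was 2.93-fold above the lowest in S and 2.27-fold in DDKO, yet the groups did not overlap, with means of 11.5 ± 5.47 and 38.9 ± 14.5 CPM and a log2 fold change of 1.76 (standard error 0.35). Its exons share 263 bases with *Thra* on the opposite strand in GENCODE M21, and whether the counting used strand is not given in the sources used here. *Thra*, the thyroid hormone receptor gene, was at 30.5 to 42.5 CPM in S and 28.5 to 37.7 CPM in DDKO libraries, which overlap.

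The *Per* genes, whose proteins carry the negative feedback together with CRY, all had positive log2 fold changes, of which those of *Per2* and *Per3* passed the threshold. *Per2* (18627, chr1:91415977-91459351, minus strand) was at 21.8, 49.0, 26.2 and 24.8 CPM in S and at 67.6, 57.6, 69.9, 64.7 and 41.6 CPM in DDKO libraries. S-2 lay above DDKO-5, so the groups overlapped by this pair alone, and the log2 fold change was 0.98 (standard error 0.24). *Per3* (18628, chr4:150997018-151044707, minus strand), the least abundant member, was at 3.91, 3.39, 2.27 and 2.70 CPM in S and at 8.14, 13.7, 6.64, 6.53 and 5.43 CPM in DDKO libraries. These rest on 34 to 61 and 70 to 193 counts, did not overlap and gave a log2 fold change of 1.40 (standard error 0.30). *Per1* (18626, chr11:69095108-69109965, plus strand), a gene that also answers acutely to hormones and injury signals, was at 13.9, 24.8, 19.2 and 17.1 CPM in S and at 64.2, 64.3, 21.5, 25.01 and 28.9 CPM in DDKO libraries. Here DDKO-1 and DDKO-2 stood apart from the other 3 DDKO libraries, which began below S-2, and the log2 fold change of 1.12 (standard error 0.35) did not pass the threshold.

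Neither *Cry* gene passed it. *Cry1* (12952, chr10:85131700-85185054, minus strand), the strongest repressor of the ARNTL and CLOCK pair, was at 29.0, 41.9, 29.4 and 34.8 CPM in S and at 31.5, 32.1, 34.3, 27.6 and 13.7 CPM in DDKO libraries. DDKO-5 lay far below all other libraries, which overlapped between groups, and the log2 fold change was -0.28 (standard error 0.23). *Cry2* (12953, chr2:92403646-92434085, minus strand) was at 17.1, 16.8, 14.0 and 16.9 CPM in S and at 29.9, 46.0, 16.2, 19.8 and 17.1 CPM in DDKO libraries. As for *Per1*, DDKO-1 and DDKO-2 were high and the other 3 lay at or near the S values, and the log2 fold change was 0.67 (standard error 0.29). *Cry2* shares 295 exonic bases with the antisense gene *D930015M05Rik*, and *Arntl* 33 with *Gm45355*.

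The direction of all 10 members was kept in each of 19 other fits, whereas the call of 4 of them was not. *Arntl*, *Npas2* and *Nr1d2* passed in all 19. *Per2* missed the threshold without S-1 (log2 fold change 0.86), S-3 (0.92) or S-4 (0.89), and *Per3* missed it without S-3 (1.28), which left 2 members higher. *Per1* passed without DDKO-3 (1.29) or DDKO-5 (1.23), with DESeq2 (1.13) and with no filter on low counts (1.10). With a term in the model for the 3 libraries rich in Y-linked counts, *Nr1d1* (1.22) and *Per3* (1.10) missed the threshold and 2 members remained higher. No S library was rich in Y-linked counts, so the genotype difference in this fit also rests on S-1 to S-4 against DDKO-3 and DDKO-4. When S-1 to S-4 were compared with DDKO-3 and DDKO-4 alone, none of which had more than 28 Y-linked counts, the log2 fold change was -0.98 for *Arntl*, -1.46 for *Npas2*, 1.22 for *Nr1d1*, 1.26 for *Nr1d2*, 1.15 for *Per2* and 1.10 for *Per3*. In these 6 libraries *Per1* (0.31) and *Cry2* (0.16) had the smallest of the positive values. *Nr1d1* and *Per3* passed the threshold in this comparison, where 4 members were higher. Without DDKO-1 and DDKO-2, a choice made after their values were seen, *Per1* was at 0.43 and *Cry2* at 0.14, while *Arntl* stayed at -1.02 and *Nr1d2* at 1.44.

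**Figure D2:**
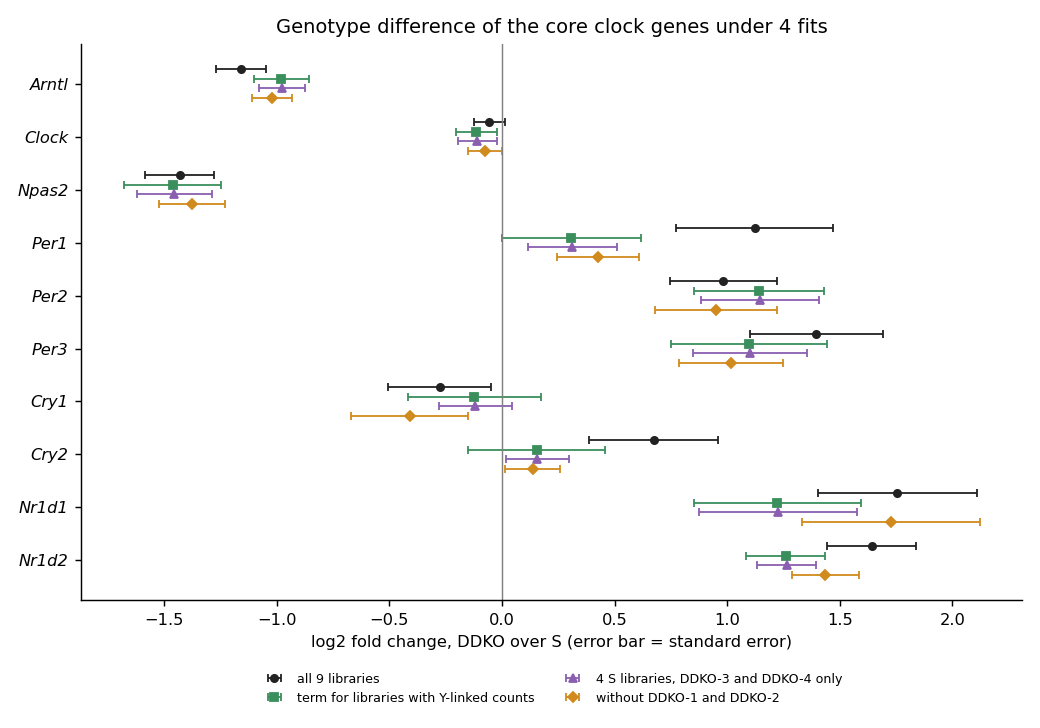
Log2 fold change of each member, DDKO over S (horizontal axis), with its standard error, in edgeR's fit to all 9 libraries (black), with a term for the 3 Y-rich libraries (green), with S-1 to S-4 against DDKO-3 and DDKO-4 (purple), and without DDKO-1 and DDKO-2 (orange). *Per1* moved from 1.12 to between 0.31 and 0.43 and *Cry2* from 0.67 to between 0.14 and 0.16 in the last 3 fits, and no member changed its sign. The green and purple fits estimate the same contrast, as no S library is Y-rich.

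The order of levels within a library was compared per kilobase of exon (union of exons in GENCODE M21, 3077 bases for *Nr1d1* to 13727 for *Clock*). In S libraries *Clock* came first at 12.1 ± 0.84 CPM per kb (SD, n = 4), followed by *Arntl* at 10.4 ± 0.71, *Cry1* at 10.1 ± 1.80 and *Npas2* at 7.82 ± 1.27. Each of these overlapped the next in its range over libraries. Next came *Nr1d2* at 5.46 ± 0.82 CPM per kb, which did not overlap *Npas2*. *Per2* at 5.20 ± 2.14, *Nr1d1* at 3.73 ± 1.78, *Per1* at 3.33 ± 0.81 and *Cry2* at 2.56 ± 0.23 followed, again with overlap between neighbours. The range of *Per2* (3.72 to 8.37) also overlapped that of *Npas2* (6.69 to 9.15), and in S-2 *Per2* (8.37) lay above *Npas2* (6.69). *Per3*, at 0.32 ± 0.08 CPM per kb, lay under all of them. In DDKO libraries *Nr1d2* came first at 17.03 ± 4.79 CPM per kb (SD, n = 5) and *Nr1d1* second at 12.6 ± 4.70, while *Arntl* was seventh at 4.65 ± 0.70 and *Npas2* ninth at 2.90 ± 0.50. In this group the only neighbours without overlap were *Npas2* and *Per3* (0.84 ± 0.34), so the first 9 places are not firmly ordered from neighbour to neighbour. *Clock* was at 11.7 ± 0.45 CPM per kb, and the 5 values of *Nr1d2* (13.1 to 24.7) lay above the 5 values of *Clock* (11.1 to 12.2), the reverse of S libraries, where *Nr1d2* (4.23 to 5.95) lay below *Clock* (10.9 to 12.9).

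The balance of the loop was described in each library by the mean log2 CPM of the 3 activators minus that of the 7 repressors. It was 2.36, 2.13, 2.15 and 2.49 in S-1 to S-4 and -0.03, -0.08, 0.69, 0.67 and 0.77 in DDKO-1 to DDKO-5. S libraries lay close together and above every DDKO library, while DDKO libraries fell into a lower pair, DDKO-1 and DDKO-2, and a close group of 3. The means were 2.28 ± 0.17 (SD, n = 4) and 0.40 ± 0.42 (SD, n = 5), a difference of -1.88 on the log2 scale. Of this, the activator mean was lower by 0.88 (6.30 ± 0.14 against 5.41 ± 0.12) and the repressor mean higher by 0.996 (4.01 ± 0.07 against 5.01 ± 0.36). Within DDKO mice the repressor mean was 5.23 in DDKO-1 and 5.54 in DDKO-2, against 4.74 to 4.77 in DDKO-3 to DDKO-5. The activator mean was lowest in DDKO-1, at 5.20, and 5.44 to 5.51 in the other 4, DDKO-2 included. The difference was -1.60 for S-1 to S-4 against DDKO-3 and DDKO-4 and -1.57 without DDKO-1 and DDKO-2.

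The ratio of *Arntl* to *Nr1d1* alone, transcripts that are known to peak at opposite times of day, differed more between group means. It also varied more between mice of a genotype. *Arntl* was 5.10, 13.4, 4.59 and 10.03 times the *Nr1d1* level in CPM in S-1 to S-4, and 0.85, 0.68, 1.37, 1.59 and 0.59 times in DDKO-1 to DDKO-5. The groups did not overlap, although S-2 and S-4 lay far above S-1 and S-3. On the log2 scale the means were 2.89 ± 0.74 and -0.09 ± 0.62, a difference of -2.98. DDKO-5 had the lowest ratio of *Arntl* to *Nr1d1* and at the same time the highest activator to repressor balance of the DDKO libraries, so the 2 measures do not order these mice alike.

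**Figure D3:**
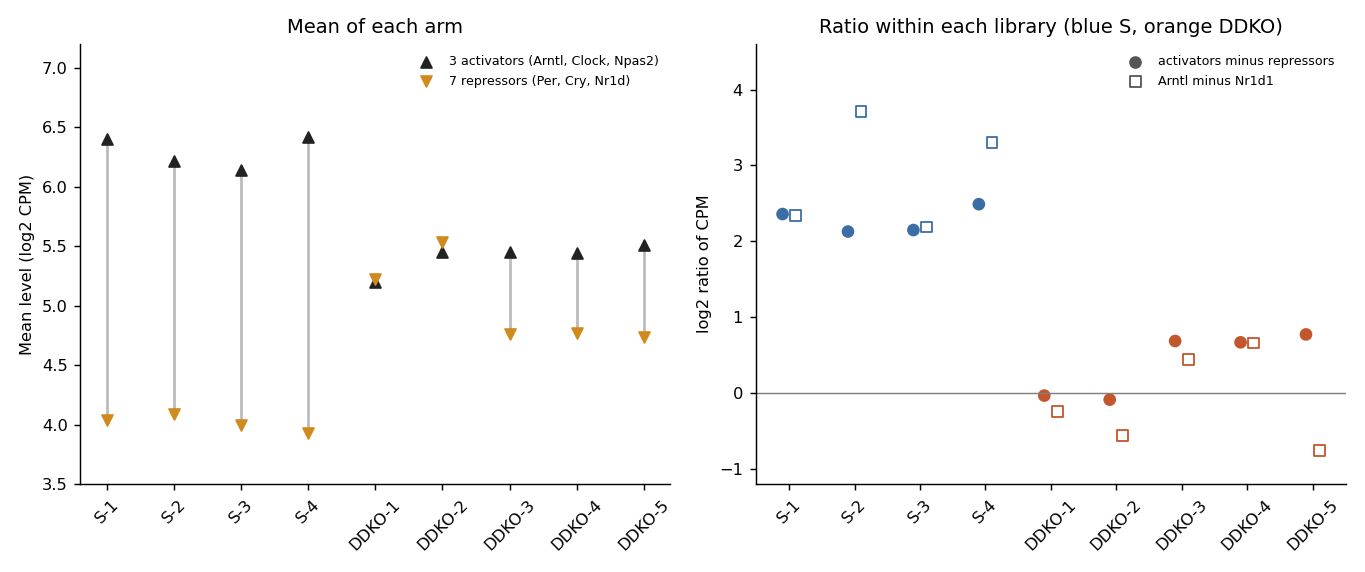
Left, mean log2 CPM of the 3 activators (triangles) and the 7 repressors (inverted triangles) in each library (horizontal axis). Right, the difference of both means (filled circles) and *Arntl* minus *Nr1d1* (open squares) on the log2 scale, blue for S and orange for DDKO. The arms lay 2.13 to 2.49 apart in S libraries and -0.08 to 0.77 apart in DDKO libraries.

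Mice of a genotype were then compared with each other, gene by gene, as a measure of how alike the state of the loop was between them. The SD of *Clock* between mice was 0.10 on the log2 CPM scale in S and 0.06 in DDKO libraries, the 26.7 and 1.58 percentile of all genes tested, and that of *Arntl* 0.10 and 0.22 (24.9 and 41.0 percentile). *Nr1d1* had an SD of 0.75 in S libraries (96.2 percentile) and *Per2* of 0.52 (90.8 percentile). In DDKO libraries *Per1* had an SD of 0.76 (91.4 percentile), *Cry2* of 0.63 (86.8 percentile) and *Cry1* of 0.54 (82.2 percentile). The median of the members was 0.24 in S and 0.44 in DDKO libraries, against 0.16 and 0.26 for all genes tested. *Clock* thus varied little from mouse to mouse, and so did *Arntl* in S mice, while in DDKO mice *Arntl* (0.22) was nearer the median of all genes (0.26). *Npas2* was at 0.23 and 0.26. Within S mice the widest spread was in *Nr1d1* and *Per2*, and within DDKO mice in *Per1* and *Cry2*. The spread rests in part on single mice. Without S-2 the members' median SD percentile in S was 49.1, against 69.3 with it. *Cry1* lay 0.94 below the DDKO mean in DDKO-5 and 0.06 to 0.37 above it in the other DDKO libraries.

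The deviations of single mice from their genotype mean had a pattern, which was noticed in the data and not tested. In S-2 *Nr1d1* was 0.87 and *Nr1d2* 0.35 below the S mean on the log2 scale, while *Per2* was 0.76, *Per1* 0.43 and *Cry1* 0.33 above it. DDKO-5 showed the reverse for all 5 genes, with *Nr1d1* 0.71 and *Nr1d2* 0.12 above the DDKO mean and *Cry1* 0.94, *Per2* 0.51 and *Per1* 0.33 below it. The following contrast was chosen after these values were seen. The mean log2 CPM of the *Per* genes minus that of the *Nr1d* genes was 0.50 in S-2 against -1.09, -1.08 and -0.60 in S-1, S-3 and S-4. In DDKO-5 it was -2.03 against -0.74, -1.08, -1.01 and -0.98 in DDKO-1 to DDKO-4. By this measure S-2 and DDKO-5 lay at opposite ends, and the remaining 7 libraries of both genotypes lay between -1.09 and -0.60. The activators of S-2 and DDKO-5 stayed within 0.22 of their genotype means.

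**Figure D4:**
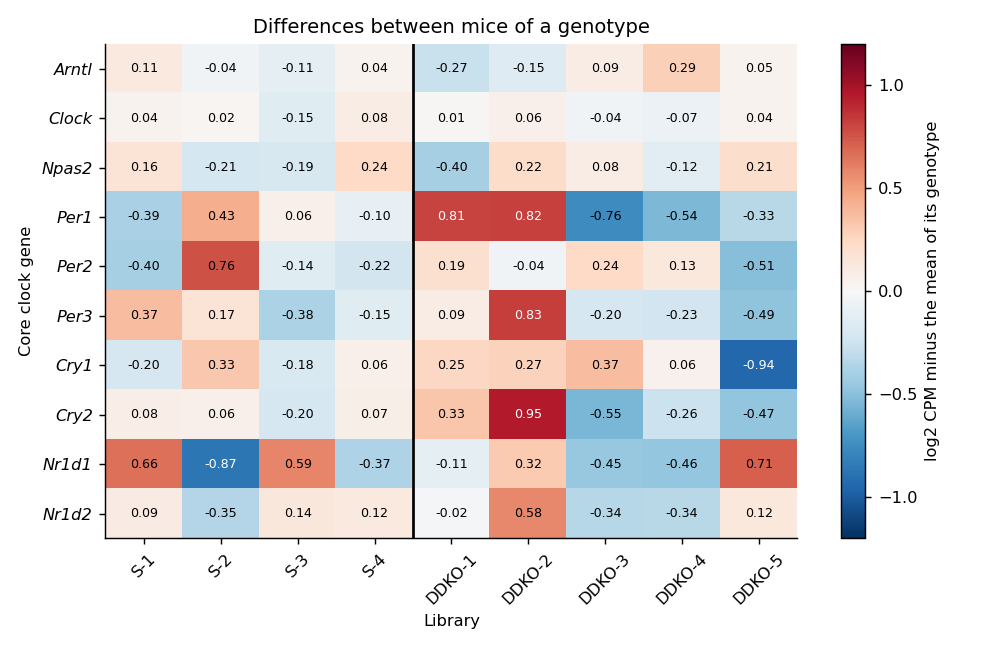
Log2 CPM of each member (rows) in each library (columns) minus the mean of its genotype, with red above and blue below the mean. S-2 had low *Nr1d1* (-0.87) with high *Per2* (0.76), DDKO-5 had high *Nr1d1* (0.71) with low *Cry1* (-0.94), and DDKO-1 and DDKO-2 shared high *Per1* (0.81 and 0.82).

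DDKO-1 and DDKO-2 stood apart from the other DDKO libraries over all genes tested. Their root mean square difference over all genes was 0.47 on the log2 scale from each other, 0.67 to 0.77 between DDKO-1 and DDKO-3 to DDKO-5, and 0.66 to 0.73 between DDKO-2 and DDKO-3 to DDKO-5. The split was not sharp. DDKO-3 and DDKO-4 differed by 0.43, but DDKO-5 lay 0.55 from DDKO-3 and 0.62 from DDKO-4, nearly as far as DDKO-2 lay from DDKO-4 (0.66). Over the 10 members DDKO-1 lay 0.63 and 0.54 from DDKO-3 and DDKO-4, about as far as DDKO-5 did (0.64 and 0.58), while DDKO-2 lay 0.86 and 0.79 from them and 0.44 from DDKO-1. In DDKO-1 and DDKO-2 *Per1* was 0.81 and 0.82 and *Cry2* 0.33 and 0.95 above the DDKO mean, with *Arntl* 0.27 and 0.15 below it. DDKO-3 and DDKO-4 were the most alike of all pairs of libraries, with a root mean square difference of 0.18 on the log2 scale over the 10 members. Pairs of S libraries differed by 0.34 to 0.71 (6 pairs), pairs of DDKO libraries by 0.18 to 0.86 (10 pairs) and pairs across genotypes by 0.92 to 1.64 (20 pairs). Over all genes tested the same distances were 0.40 to 0.54, 0.43 to 0.77 and 0.66 to 0.95. As the members were selected on the genotype difference, their wider distances across genotypes were built in by that choice. DDKO-1 and DDKO-2 had 4907 and 4745 Y-linked counts and DDKO-5, which did not share their high *Per1* and *Cry2*, had 3857. Summed markers of small-intestinal enterocytes were at 1239 and 1617 CPM in DDKO-1 and DDKO-2 and at 929, 1573 and 572 CPM in DDKO-3 to DDKO-5, and the part of either in this split was not tested.

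Other genes of the clock pathway were taken from a list of 28, of which 24 passed the filter on low counts. Of these, 5 were higher and 1 lower in DDKO libraries at an adjusted p under 0.05 in edgeR's fit, beside 6.76% and 6.54% of all genes, and their median log2 fold change was 0.22. Among the PAR bZIP outputs *Dbp* was at 0.58 to 1.72 CPM in S and 6.61 to 16.6 CPM in DDKO libraries, higher by 3.15 on the log2 scale (standard error 0.36), and *Tef* at 7.70 to 16.2 and 52.0 to 110.6 CPM, higher by 2.68 (standard error 0.29). *Ciart*, a repressor of the ARNTL and CLOCK pair, was at 0.64 to 1.49 CPM in S libraries and at 11.5, 15.9, 3.29, 3.22 and 2.25 CPM in DDKO-1 to DDKO-5, highest in the same 2 libraries as *Per1* and *Cry2*. Its log2 fold change was 2.95 (standard error 0.64), and it missed the threshold without S-3 (2.82), with limma-voom (2.60) and when Y-rich libraries had a term (1.79). *Bhlhe40*, another E-box repressor, was not called and was at 129.7 to 151 CPM in S libraries and 199, 191, 146, 137 and 162 CPM in DDKO-1 to DDKO-5.

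*Rora*, whose product activates at the ROR elements that NR1D1 and NR1D2 repress, did not pass the threshold. It was low at 1.93 ± 1.09 and 2.53 ± 1.08 CPM, and *Nfil3*, which represses at D-boxes, was at 11.1 ± 1.33 and 7.92 ± 2.38 CPM (log2 fold change -0.49, standard error 0.22). Of the 6 kinases *Prkaa1* and *Prkaa2*, the catalytic subunits of AMPK, were higher by 0.33 and 0.49 on the log2 scale (standard errors 0.09 and 0.12), and the casein kinase genes *Csnk1d* and *Csnk1e*, whose products mark PER proteins for turnover, were at 0.05 and 0.09. *Btrc*, part of the ubiquitin ligase that then removes PER, was lower by a log2 fold change of -0.67 (standard error 0.17). It was the only 1 called of the 4 tested ubiquitin ligase or protease genes of the list. Among these *Fbxw11* was at 99.5 ± 4.62 and 103.1 ± 2.76 CPM (log2 fold change 0.05, standard error 0.06). The calls of *Btrc*, *Prkaa1* and *Prkaa2* lay near the threshold and were lost without any 1 of several libraries, while the fold changes moved little. *Btrc* missed the threshold without S-1, S-2, S-3, S-4, DDKO-1, DDKO-2 or DDKO-4 (log2 fold changes -0.69 to -0.59), *Prkaa1* without any S library, DDKO-3 or DDKO-4 (0.30 to 0.34), and *Prkaa2* without S-1, S-3, S-4 or DDKO-4 (0.44 to 0.53). The 5 chromatin partners of the repressors, *Ncor1*, *Hdac3*, *Sirt1*, *Ep300* and *Kdm5a*, had log2 fold changes of 0.04 to 0.33 and none passed.

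Genes whose differences between mice were most like those of *Arntl* were named by Pearson's r over the 9 libraries after the genotype mean was removed, among the 13699 genes whose mean level reached 1 CPM, as a description. The highest were *D330041H03Rik* (0.99), *Smim13* (0.97), *Glrx2* (0.96), *Cdh1* (0.96), the gene of E-cadherin, and *Xiap* (0.95). Among the 5 most opposite were *Qtrt1* (-0.99), *Rabepk* (-0.98), *Yaf2* (-0.97) and *Bhlhe40* (-0.96). Of the other members *Per1* was the most opposite (-0.86) and *Npas2* the most like (0.37), with *Nr1d1* at -0.16. *Arntl* itself varied only 1.17-fold between S mice and 1.47-fold between DDKO mice, the libraries share their depth and cell makeup with every gene, and without a single library 2 to 7 of the 10 names were kept.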

How the data were processed

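RNA-seq counts of colonic IECs from 4 S and 5 DDKO mice were analysed, with each library placed by its title. The authors deposited unnormalized whole-number counts for each gene symbol and each mouse. The submitters' processing notes name HISAT2 2.0 and mm10. The counting program, its annotation and its use of strand are not given in the sources used here. Of the 46095 symbols, 27 had been turned into dates and stayed in the totals unnamed. Libraries of a genotype differed beyond counting noise (lowest chi-square per gene of any pair 9.22), so all 9 were kept as replicates.

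Low counts were filtered with filterByExpr in edgeR 4.0.16 (R 4.3.3). Counts were scaled by TMM and tested with edgeR's quasi-likelihood test, DDKO against S, without covariates, with Benjamini-Hochberg adjustment over all genes. Each standard error is the size of the log2 fold change divided by the root of its F value. Log2 CPM used a prior count of 2. The method was tested on simulated data. The members, the lists and the term for Y-linked counts (over 100 summed counts of *Ddx3y*, *Eif2s3y*, *Uty* and *Kdm5d*) were chosen with earlier results of these data known. Genes named are the members, pathway genes that were called and *Dbp*, *Nfil3* and *Rora*, the 5 most like and 5 most opposite to *Arntl*, the deleted genes and *Thra*. *Csnk1d*, *Csnk1e*, *Fbxw11* and the chromatin partners were named after their values were seen. Some genes that this rule names are not reported here. Alternatives were DESeq2 1.42.0, limma-voom (limma 3.58.1), DESeq2's size factors, library size alone, no filter, a minimum of 10 counts in all libraries, leaving out each library, the replicate number as a block, and the fits for Y-linked counts. The replicate numbers did not pair the libraries.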

Additional observations from a re-analysis of the deposited data

Results flagged for a closer look

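Within each genotype the log2 CPM of the 10 members and the activator to repressor ratio were searched for a library far from the others by Dixon's ratio, the gap to the nearest library over the range of the group. Of 22 groups 3 held a library past Dixon's 95% critical value, where chance gives about 1 in 20. *Cry1* in DDKO-5 had a ratio of 0.762 and lay at 3.79 on the log2 CPM scale. *Cry2* in S-3 had a ratio of 0.926 and *Nr1d2* in S-2 a ratio of 0.913, and lay at 3.82 and 4.52 on the log2 CPM scale. Without DDKO-5 the log2 fold change of *Cry1* was -0.09, without S-3 that of *Cry2* was 0.61 and without S-2 that of *Nr1d2* was 1.53. Only the call of *Nr1d2*, which passed with and without S-2, is a call at all, and *Cry1* and *Cry2* stayed under the threshold in all 19 alternatives.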

How the results depend on the processing

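Of 190 log2 fold changes of the members under alternatives, 180 kept their direction and their side of the threshold, 6 no longer passed, 4 newly passed and 0 changed sign. With each library left out in turn, 455 to 1380 genes were higher and 392 to 1316 lower over all genes, 2 to 5 members higher and 2 lower, 2 to 5 other clock-pathway genes higher and 0 to 1 lower. The activator to repressor ratio differed by -1.97 to -1.76, the members' median SD percentile lay at 49.1 to 77.5 (S) and 60.5 to 81.3 (DDKO), and 2 to 7 of the 10 genes most like or opposite to *Arntl* were kept. A term for Y-linked counts left 653 higher and 632 lower over all genes, 2 members higher and 0 pathway genes lower. Among libraries with at most 100 Y-linked counts 1524 genes were lower over all genes, and 2 pathway genes. With at least 10 counts in every library, a filter that removes *Dbp* and *Ciart*, 3 pathway genes were higher. *Arntl* against *Nr1d1* gave a ratio difference of -2.98. Spearman's coefficient kept 3 of the 10 genes.

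The replicate numbers share only a number (correlations of deviations of same-numbered libraries of -0.10, -0.10, 0.02 and 0.09). The replicate block covers pairs 1 to 4 and so leaves out DDKO-5. On these 8 libraries 807 genes were higher and 774 lower over all genes with the block, against 1380 and 1316 without it. With the block 4 members were higher against 5 without it, *Per1* (1.09 against 1.23) no longer passing, and 3 pathway genes were higher against 5, *Prkaa1* and *Prkaa2* no longer passing. The sign turned for *Smad4* without DDKO-1 and DDKO-2 (-0.12, chosen after seeing the data), with the replicate block (-0.13), with the term for Y-linked counts (-0.71), among libraries with at most 100 Y-linked counts (-0.70), without DDKO replicate 2 (-0.11) and without DDKO replicate 5 (-0.01), its range with a library left out being -0.11 to 0.37. Where no reason is given, the cause was not tested. Members rested on at least 34 counts per library.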
